A study of Mus musculus with 24 samples.

Results

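The hearts of adult offspring were compared for whether treatment of the mother with T3 during pregnancy left a different change in TRα1+/m than in wild-type (Wt) offspring. The measure is the interaction of genotype and maternal T3, or the difference T3 minus H2O in TRα1+/m hearts less the same difference in Wt hearts, on the log2 scale. The contrast takes in all 24 of the 24 mice of the series, 6 in each of 4 groups, and was tested for 19801 of the 22206 probe sets that are not array controls. A positive interaction means that the change was more positive in TRα1+/m hearts.

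The 4 groups were TRα1+/m offspring of T3-treated mothers (TRα1+/m T3), TRα1+/m offspring of H2O mothers (TRα1+/m H2O), Wt offspring of T3-treated mothers (Wt T3) and Wt offspring of H2O mothers (Wt H2O). TRα1+/m mice carry the R384C mutation on one allele of Thra and were sired by mutant males mated to wild-type females, so that mothers of all 4 groups were wild-type. T3-treated mothers drank water with T3 (0.5 mg/L) and BSA (0.01%) between embryonic days 12.5 and 18.5 by the labels (the methods of the study end the treatment 1 day earlier), and H2O mothers drank the BSA alone. The offspring themselves received no hormone. All mice were males of strain C57/BL6NCr, housed at 22 °C and analysed at 4 to 5 months by the labels, and 1 whole heart was hybridised per array. The labels do not tie mice to litters, so littermates exposed through 1 mother may count as separate mice, and p-values measure only the spread between these mice.

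Thyroid hormone acts on the heart mainly through TRα1, a nuclear receptor that represses its target genes without hormone and activates them once T3 binds. The R384C mutation lowers the affinity for T3, so the mutant receptor holds target genes down at normal hormone levels and lets go of them when the hormone is high. In the rodent heart T3 is known to raise the alpha myosin heavy chain gene Myh6, the calcium pump gene Atp2a2 and the pacemaker channel gene Hcn2, and to lower the beta myosin heavy chain gene Myh7. Maternal T3 reaches the embryo, in which the mutant receptor is already present, and the adult hearts measured here were studied months after the exposure had ended.

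Before the results, 2 features of the libraries need to be given. First, 5 mice stood apart on the first principal component, which held 17.5% of the variance, namely TRα1+/m T3 mice 16 and 17, TRα1+/m H2O mouse 4 and Wt T3 mice 14 and 15 (numbers as in the labels). No Wt H2O mouse was among them, so they do not fall evenly on the contrast. Second, label numbers fell into a low range (up to 17) and a high range (37 and above), with 9 and 15 mice, and only 1 Wt H2O mouse was in the low range. What the numbers stand for is not stated. The mean over the 8 cardiomyocyte markers was 18.24 to 18.47 in TRα1+/m T3, 18.25 to 18.43 in TRα1+/m H2O, 18.18 to 18.53 in Wt T3 and 18.15 to 18.35 in Wt H2O hearts, so the tissue label held in every mouse. These levels lie near the top of the scale (highest value 19.93), where values compress, so their narrow range does not show equal cardiomyocyte content. The mean over the 8 atrial markers, at lower levels, varied far more, at 11.38 to 14.20 in TRα1+/m T3, 11.70 to 13.96 in TRα1+/m H2O, 11.03 to 14.79 in Wt T3 and 11.15 to 13.83 in Wt H2O hearts. The arrays' 5222 negative control probe sets averaged 5.60 to 6.04 per array, and the middle of their values ran from 4.44 (lower quartile) to 6.81 (upper quartile). All 4 group means were under 5.60 for 31.7% of the features tested and for 40.4% of those with an unadjusted interaction p under 0.05, so a difference in such a feature is one of signal not above these controls. In these bulk samples, fewer cells of a type and less RNA per cell cannot be told apart.

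No gene passed the interaction test. Of the 19801 features, 0 had an adjusted p under 0.05 (limma, Benjamini-Hochberg), and 830 had an unadjusted p under 0.05, a share of 4.19%, with 397 positive (2.0%) and 433 negative (2.19%). A plain two-factor analysis of variance, which the study's methods apply to gene lists and which was run here over all features, called 0 as well, with 834 features for the interaction at an unadjusted p under 0.05. The lowest adjusted p was 0.127, and the next was 0.848. The lowest belonged to a probe set to which the annotation used here gives no gene (TC0100001477.mm.2), whose log2 level was 3.86 to 5.08 (median 4.58) in TRα1+/m T3, 3.12 to 4.16 (median 3.72) in TRα1+/m H2O, 3.71 to 4.11 (median 3.94) in Wt T3 and 4.29 to 4.61 (median 4.40) in Wt H2O hearts. Its interaction was 1.43 ± 0.26 (SE), with a change of 0.93 in TRα1+/m and -0.51 in Wt hearts. Every value lay under the mean of the negative controls on every array, so the difference is one of signal not above background and is no measure of expression. The feature passed at an adjusted p of 0.0191 with array weights, at 0.0473 without TRα1+/m H2O mouse 53 and at 0.00564 without TRα1+/m T3 mouse 16.

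The intervals show what size of genotype dependence the 24 mice could bound. The median standard error of the interaction was 0.28 log2 units and the its 95% interval reached a median of 0.57 to either side. For 15568 features (78.6%) the interval lay within 1 log2 unit of 0, so a signal difference of that size between the genotypes was outside it. For 3494 features (17.6%) it lay within 0.58, the log2 of a 1.5-fold difference. For most features the interval thus reached 0.58 or more on at least 1 side, and a 1.5-fold difference was not outside it. Only 73 features had an interaction over 1 in size. All these counts include the 31.7% of features with every group mean under the negative control means. They also include features near the top of the scale. In both kinds a narrow interval does not bound expression.

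Maternal T3 alone gave few calls in either genotype. In TRα1+/m hearts 17 features (0.0859%) had an adjusted p under 0.05, 2 of them higher (0.0101%) and 15 lower (0.0758%) after maternal T3. In Wt hearts 1 feature (0.00505%) passed, the autophagy gene Atg2a, which was higher after maternal T3. At an unadjusted p under 0.05 the shares were 8.31% in TRα1+/m hearts (3.98% higher, 4.32% lower) and 11.0% in Wt hearts (6.03% higher, 4.95% lower), against 4.19% for the interaction. The count in TRα1+/m hearts turned on single mice. It was 0 when any 1 of 10 of the 12 TRα1+/m mice (all but TRα1+/m T3 mouse 16 and TRα1+/m H2O mouse 4) was left out, 42 without TRα1+/m H2O mouse 4, and 0 in the high number range, where the changes themselves were -1.31 for Zfp965, 1.29 for Phxr4 and -0.79 for Rtn4r, against -1.19, 1.09 and -0.93 over all mice. A call in 1 genotype alone does not show that the genotypes differ, and none of these features passed the interaction test.

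**Figure D1:**
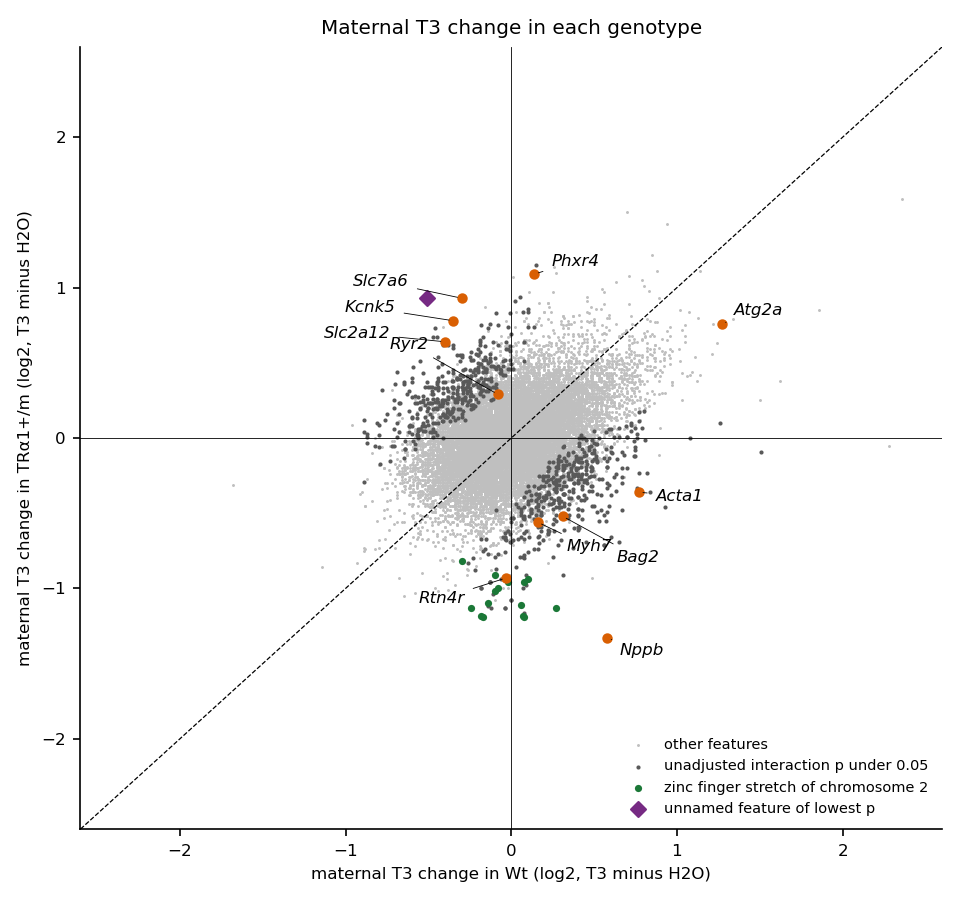
Each point is 1 of 19801 features, placed by its maternal T3 change in Wt hearts (x axis, log2) and in TRα1+/m hearts (y axis, log2); on the dashed line both changes are equal. Dark grey points have an unadjusted interaction p under 0.05, green points are the zinc finger genes of chromosome 2, and Nppb, at -1.33 in TRα1+/m and 0.58 in Wt hearts, lies farthest to the lower right of the named genes.

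Most features with an unadjusted interaction p under 0.05 (limma) had estimated changes of opposite sign in the genotypes. Among the 397 positive features, 368 (92.7%) had opposite signs, with a median change of 0.31 in TRα1+/m and -0.35 in Wt hearts, and 183 had the larger change in TRα1+/m. Among the 433 negative features, 362 (83.6%) had opposite signs, with medians of -0.35 in TRα1+/m and 0.31 in Wt hearts. Over all features 37% had opposite signs. Selection on the interaction favours opposite signs, so these shares are descriptions and do not show that both genotypes changed. The selected features were also dimmer, with a median log2 level of 5.91 and 5.92 against 6.88 over all features.

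Of the 20 named genes of lowest p, 7 (Kcnk5, Olfr857, Egfl6, Spint1, Akap14, Prc1 and Teddm2) had all 4 group means under the negative control mean of every array, and their values are given as signal, not as expression. Transporter, channel and vesicle genes were among the 10 named genes of lowest p with a positive interaction. Slc7a6, a transporter of cationic amino acids, had log2 values of 6.75 to 7.64 (median 6.98) in TRα1+/m T3, 5.83 to 6.39 (median 6.23) in TRα1+/m H2O, 6.08 to 6.89 (median 6.58) in Wt T3 and 6.15 to 7.18 (median 6.89) in Wt H2O hearts. All 6 TRα1+/m T3 hearts were above all 6 TRα1+/m H2O hearts, while the Wt groups overlapped. The interaction was 1.23 ± 0.28 (SE; limma adjusted p = 0.848), with changes of 0.93 in TRα1+/m and -0.30 in Wt hearts.

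Slc2a12, which codes for the glucose transporter GLUT12, ran from 6.50 to 7.51 (median 6.86) in TRα1+/m T3, 5.53 to 6.54 (median 6.4) in TRα1+/m H2O, 6.14 to 7.33 (median 6.46) in Wt T3 and 6.82 to 7.30 (median 7.06) in Wt H2O hearts. All groups but TRα1+/m H2O and Wt H2O overlapped, and the lowest value was that of TRα1+/m H2O mouse 4. The interaction was 1.05 ± 0.29 (limma adjusted p = 0.904). It was 0.74 without the 5 mice that stood apart.

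Kcnk5, a leak potassium channel, ran from 5.09 to 5.87 (median 5.37) in TRα1+/m T3, 4.39 to 5.04 (median 4.63) in TRα1+/m H2O, 4.49 to 5.44 (median 4.91) in Wt T3 and 4.86 to 6.03 (median 5.13) in Wt H2O hearts. The TRα1+/m groups did not overlap and the Wt groups did, at a signal not above the negative controls. Its interaction was 1.12 ± 0.29 (adjusted p = 0.848). Zfyve26, a gene of lysosome reformation after autophagy, had medians of 7.68 in TRα1+/m T3, 7.10 in TRα1+/m H2O, 7.32 in Wt T3 and 7.51 in Wt H2O hearts, and an interaction of 0.83 ± 0.22 (adjusted p = 0.848). In Slc7a6, Slc2a12, Kcnk5 and Zfyve26 alike, TRα1+/m H2O hearts had the lowest mean of the 4 groups.

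The other 6 positive genes were Olfr857, an olfactory receptor gene, Egfl6, a secreted matrix protein, Spint1, a serine protease inhibitor, Slitrk4, a neuronal adhesion protein, Prl2c1, of the prolactin family, and Mblac2, an enzyme of the metallo-beta-lactamase fold. Their interactions were 0.88 to 1.06. In Egfl6 the change was 0.12 in TRα1+/m and -0.89 in Wt hearts, and in Prl2c1 it was 0.04 in TRα1+/m and -0.89 in Wt hearts. Olfr857 was the dimmest, with medians of 4.17 in TRα1+/m T3, 3.67 in TRα1+/m H2O, 3.55 in Wt T3 and 4.09 in Wt H2O hearts.

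**Figure D2:**
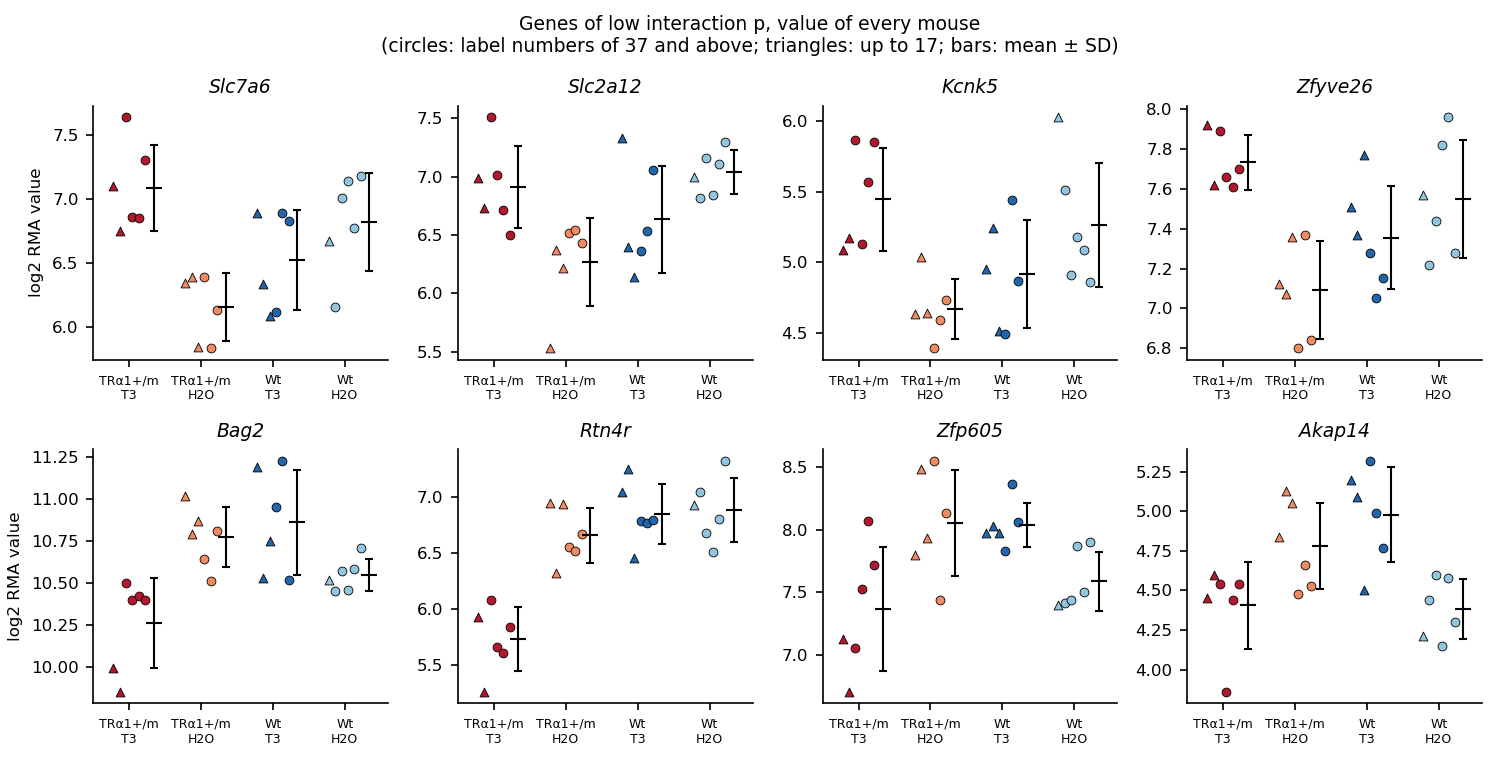
Log2 RMA value (y axis) of every mouse in the 4 groups (x axis) for 4 genes with a positive interaction (top row) and 4 with a negative one (bottom row). Points are mice, with triangles for label numbers up to 17, and bars are the mean ± SD of 6 mice; in Slc7a6, Kcnk5 and Zfyve26 the TRα1+/m T3 points lie above all TRα1+/m H2O points, and in Bag2 and Rtn4r below them, while the Kcnk5 and Akap14 panels show signal not above the negative controls.

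The 10 named genes of lowest p with a negative interaction held the natriuretic peptide gene Nppb, described with the heart genes, and Bag2, a co-chaperone of Hsp70. Bag2 had log2 values of 9.85 to 10.50 (median 10.40) in TRα1+/m T3, 10.51 to 11.02 (median 10.80) in TRα1+/m H2O, 10.52 to 11.23 (median 10.85) in Wt T3 and 10.45 to 10.71 (median 10.55) in Wt H2O hearts. All TRα1+/m T3 hearts were below all TRα1+/m H2O hearts, the lowest being mice 16 and 17. The interaction was -0.83 ± 0.21 (limma adjusted p = 0.848), and -0.57 in the mice of the high number range.

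Rtn4r, the receptor of the axon growth inhibitor Nogo, ran from 5.26 to 6.08 (median 5.75) in TRα1+/m T3, 6.32 to 6.95 (median 6.62) in TRα1+/m H2O, 6.46 to 7.25 (median 6.8) in Wt T3 and 6.51 to 7.33 (median 6.87) in Wt H2O hearts. The TRα1+/m T3 hearts stood below the other 3 groups with no overlap, at a mean of 5.73 that was itself at the level of the negative controls. Rtn4r was one of the features that fell after maternal T3 in TRα1+/m hearts (log2 change -0.93, adjusted p = 0.0345), and its change in Wt hearts was -0.03 (adjusted p = 0.963). The interaction of -0.90 ± 0.24 did not pass (adjusted p = 0.848).

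Of the remaining 7, of which Akap14, Prc1 and Teddm2 were not above the negative controls, Akap14, an anchoring protein of protein kinase A, had changes of -0.38 in TRα1+/m and 0.60 in Wt hearts, and the zinc finger gene Zfp605 had -0.69 in TRα1+/m and 0.45 in Wt hearts. Cd28, a costimulatory receptor of T cells, had changes of -0.74 in TRα1+/m and 0.16 in Wt hearts. Prc1, a cytokinesis gene, had -0.12 in TRα1+/m and 0.75 in Wt hearts. Vmn1r228, a vomeronasal receptor gene, Marchf3, a ubiquitin ligase, and Teddm2 had interactions of -1.34, -1.04 and -1.26. For Vmn1r228 the means of TRα1+/m T3 (5.47) and Wt H2O hearts (5.53) were under the negative control mean of every array. Its means in TRα1+/m H2O (6.16) and Wt T3 hearts (6.18) were close to the highest control mean, 6.04.

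All 20 of these genes kept their sign without the 5 mice that stood apart, with the number range as a block and in the mice of the high number range. In the high number range 19 of the 20 had an unadjusted p under 0.05, and leaving out any 1 mouse left each of them at an unadjusted p under 0.05. This stability comes after selection on the same mice and is no independent support.

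Heart genes were then taken by role. Among natriuretic peptide and contractile genes, Nppb, which codes for the B-type natriuretic peptide released on wall stress, had the largest contrast. Its log2 values were 7.99 to 9.62 (median 9.06) in TRα1+/m T3, 9.86 to 10.32 (median 10.23) in TRα1+/m H2O, 10.66 to 12.56 (median 11.09) in Wt T3 and 9.52 to 11.82 (median 10.68) in Wt H2O hearts. Every TRα1+/m T3 heart was below every heart of the TRα1+/m H2O and Wt T3 groups, and the Wt groups overlapped.

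The interaction of Nppb was -1.91 ± 0.49 (95% interval -2.92 to -0.90; unadjusted p = 0.0006 and adjusted p = 0.848 by limma), with changes of -1.33 in TRα1+/m and 0.58 in Wt hearts. The lowest values belonged to TRα1+/m T3 mice 16 and 17 and the highest to Wt T3 mouse 14, all among the 5 that stood apart. Without those 5 mice the interaction was -1.08, with -0.92 in TRα1+/m and 0.16 in Wt hearts, and in the high number range it was -1.44. Nppb is also made in the atria, and the atrial markers in the same contrast had a median interaction of -0.39, of 0.94 in the high number range and of -2.98 in the low one. The part of atrial content in the Nppb values was not tested.

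Acta1, the skeletal alpha actin gene that is part of the fetal heart programme, ran from 12.24 to 12.77 (median 12.59) in TRα1+/m T3, 12.24 to 14.46 (median 12.63) in TRα1+/m H2O, 14.27 to 15.54 (median 14.72) in Wt T3 and 13.66 to 14.36 (median 14) in Wt H2O hearts. The TRα1+/m groups overlapped throughout, and the Wt T3 hearts were mostly above the Wt H2O hearts. The interaction was -1.13 (95% interval -1.92 to -0.35; adjusted p = 1.0), and -0.82 without TRα1+/m H2O mouse 6, which had the highest value of its group.

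Myh7, the beta myosin heavy chain gene, was high in both TRα1+/m groups, at 17.66 to 18.60 (median 17.94) in T3 and 18.26 to 19.33 (median 18.39) in H2O hearts, against 16.14 to 16.91 (median 16.49) in Wt T3 and 15.95 to 17.02 (median 16.20) in Wt H2O hearts. By genotype it rose by 2.19 in TRα1+/m H2O over Wt H2O hearts (adjusted p = 1.35e-07), and the difference in T3 hearts was 1.47. The interaction, which is the gap between those 2 genotype differences, was -0.72 (95% interval -1.31 to -0.12; unadjusted p = 0.0196, adjusted p = 1.0). The highest TRα1+/m H2O value was again that of mouse 6, and without it the interaction was -0.56. The TRα1+/m values lie nearer the top of the scale (19.93), where values compress, than the Wt values. The Myh7 changes in the genotypes were thus measured on unlike parts of the scale.

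Of the 38 sarcomere and fetal genes tested, 4 had an unadjusted p under 0.05 (10.5%, against 4.19% of all features), all with a negative interaction. The fourth beside Nppb, Acta1 and Myh7 was Ankrd1, a stress-responsive cardiac ankyrin repeat protein, at -0.65, with -0.19 in TRα1+/m and 0.45 in Wt hearts. The list had a median interaction of -0.16, against 0.00 for all features, and 9 of its members were positive. Without the 5 mice that stood apart 2 were negative (5.26%, against 4.92% of all features), and the median was -0.08. Myh6, at 19.53 to 19.81 in all mice, and Atp2a2, at 19.91 to 19.93, lay near the top of the scale, where a difference can hardly show. Their interactions were 0.08 and 0.00.

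**Figure D3:**
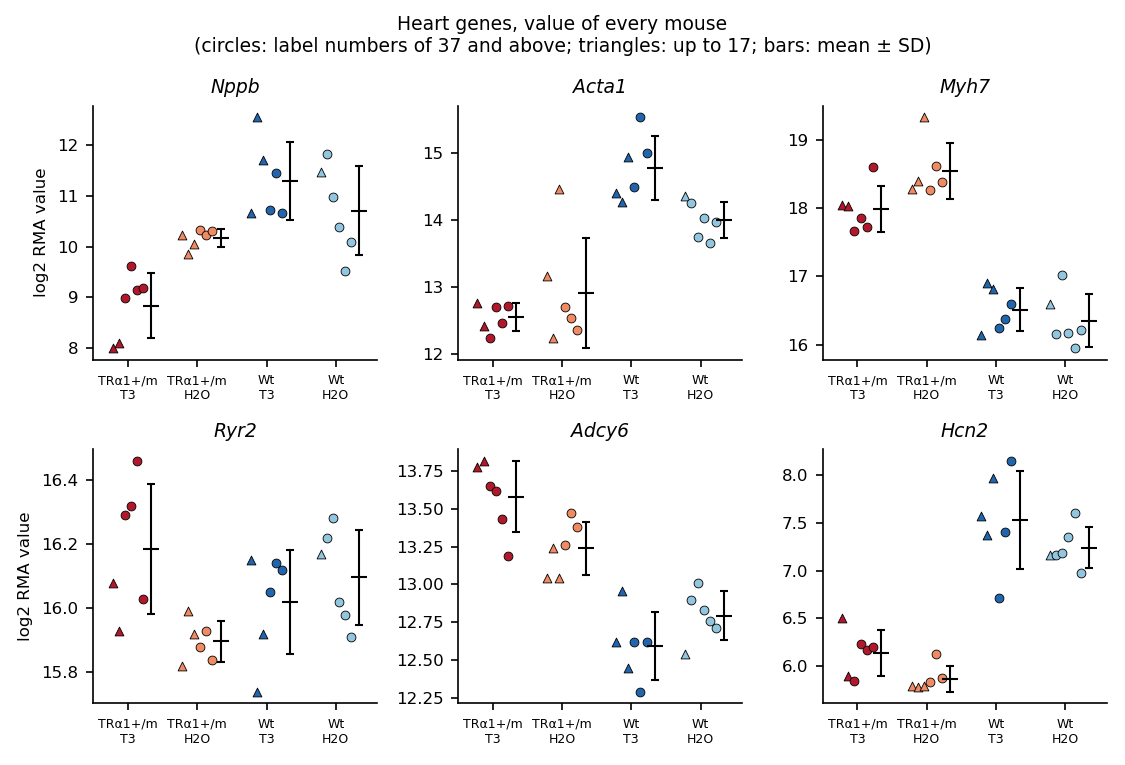
Log2 RMA value (y axis) of every mouse in the 4 groups (x axis) for 6 heart genes, with triangles for label numbers up to 17 and bars for the mean ± SD of 6 mice. Nppb is lowest in TRα1+/m T3 hearts, Myh7 differs more by genotype than by maternal T3, and the Hcn2 values of TRα1+/m hearts lie near the negative control level.

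Of the 57 genes of heart rate regulation tested, 4 had an unadjusted p under 0.05 (7.02%), all with a positive interaction (2.0% of all features, 4.19% in either direction), and the median was 0.00. Adcy6, a major adenylyl cyclase of the heart muscle cell, ran from 13.19 to 13.82 (median 13.64) in TRα1+/m T3, 13.04 to 13.47 (median 13.25) in TRα1+/m H2O, 12.29 to 12.96 (median 12.62) in Wt T3 and 12.54 to 13.01 (median 12.80) in Wt H2O hearts. Its interaction was 0.54 (95% interval 0.14 to 0.94; adjusted p = 1.0). Both TRα1+/m groups were above both Wt groups.

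Ryr2, which codes for the channel that releases calcium from the sarcoplasmic reticulum, had values of 15.93 to 16.46 (median 16.19) in TRα1+/m T3, 15.82 to 15.99 (median 15.90) in TRα1+/m H2O, 15.74 to 16.15 (median 16.08) in Wt T3 and 15.91 to 16.28 (median 16.10) in Wt H2O hearts. The 4 groups overlapped, and the TRα1+/m H2O hearts lay closest together. The interaction was 0.37 (95% interval 0.02 to 0.72; unadjusted p = 0.0415, adjusted p = 1.0), and its unadjusted p was 0.052 without the 5 mice that stood apart and 0.082 without TRα1+/m T3 mouse 51. The other 2 genes were Pde4b, a phosphodiesterase of cyclic AMP, at 0.54, and Nos1ap, an adaptor of neuronal nitric oxide synthase known in humans for its link to the QT interval, at 0.49. Without the 5 mice 4 of the 57 were positive as well (7.02%, against 4.92% of all features in either direction), but Ryr2 and Pde4b were replaced by the calcium channel gene Cacna1d (0.67, not above the negative controls) and the endothelial nitric oxide synthase gene Nos3 (0.61).

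For 3 channel genes, Hcn2, Kcnh2 and Hcn4, the estimated changes in the genotypes were close over all mice. Hcn2, a pacemaker channel gene, was 5.84 to 6.50 (median 6.18) in TRα1+/m T3, 5.78 to 6.13 (median 5.81) in TRα1+/m H2O, 6.71 to 8.15 (median 7.49) in Wt T3 and 6.97 to 7.60 (median 7.17) in Wt H2O hearts. It fell by 1.37 in TRα1+/m H2O relative to Wt H2O hearts (adjusted p = 7.1e-05). The TRα1+/m H2O hearts were at the level of the negative controls, so this fall may be understated, and the maternal T3 change of 0.28 in TRα1+/m hearts, beside 0.29 in Wt hearts, does not show that the genotypes changed equally. The interaction was -0.02 with a 95% interval of -0.54 to 0.51. Kcnh2, the channel gene of the rapid delayed rectifier current, had changes of 0.27 in TRα1+/m and 0.29 in Wt hearts and an interaction of -0.02 (95% interval -0.52 to 0.48). This closeness depended on the mice taken. Without the 5 mice that stood apart the Kcnh2 changes were 0.05 in TRα1+/m and 0.39 in Wt hearts, with an interaction of -0.34. In the high number range its interaction was -0.21. Hcn4, the main pacemaker channel gene of the sinus node, had changes of -0.32 in TRα1+/m and -0.41 in Wt hearts and an interaction of 0.08 (-0.48 to 0.64). For Kcnh2 and Hcn4, whose signal was above the controls, a difference of 1 log2 unit between the genotypes lay outside the interval over all mice.

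Kcne1, a potassium channel subunit, was 7.41 to 9.32 (median 8.53) in TRα1+/m T3, 7.79 to 9.20 (median 8.06) in TRα1+/m H2O, 5.49 to 5.82 (median 5.61) in Wt T3 and 5.37 to 6.48 (median 5.68) in Wt H2O hearts. The TRα1+/m hearts were above all Wt hearts at both levels of maternal treatment, and the Wt hearts were at the level of the negative controls, with an interaction of 0.43 (95% interval -0.31 to 1.17). Kcnd2, a channel gene of the transient outward current, Kcna5, of the ultrarapid current, and Chrm2, the muscarinic receptor of the heart, had interactions of -0.23, 0.39 and 0.23, with intervals that all held 0. Thra itself was 12.18 to 12.65 (median 12.40) in TRα1+/m T3, 12.15 to 12.67 (median 12.26) in TRα1+/m H2O, 11.58 to 11.83 (median 11.69) in Wt T3 and 11.47 to 12.04 (median 11.71) in Wt H2O hearts, and its interaction was 0.15 (95% interval -0.23 to 0.53). It was higher in TRα1+/m than in Wt hearts after maternal T3 (by 0.73, limma adjusted p = 0.0011) and without it (by 0.58, adjusted p = 0.0134), with no overlap between the genotypes. The array gives the level and not the mutation. Adrb1 is not analysed here.

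**Figure D4:**
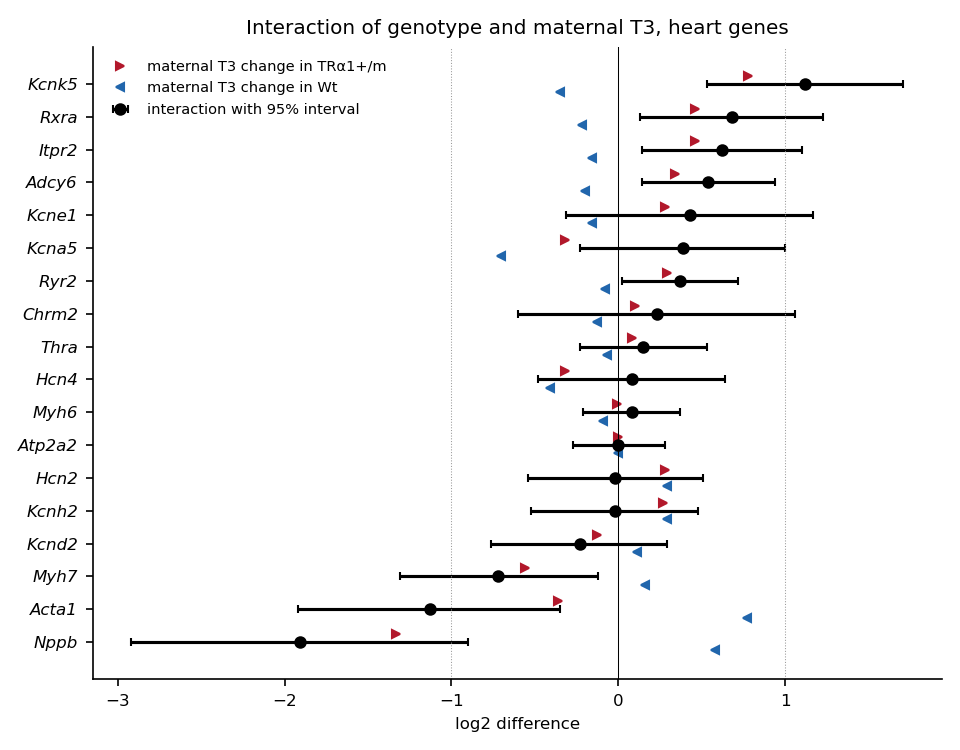
Interaction (black circles, with 95% interval) and maternal T3 change in TRα1+/m (red triangles) and Wt hearts (blue triangles) for 18 heart genes, on the log2 scale (x axis). The intervals of Hcn2, Kcnh2, Hcn4, Myh6, Atp2a2, Thra and Kcnd2 hold 0 and end inside the dotted lines at -1 and 1, and those of Nppb, Acta1 and Myh7 lie wholly below 0. Hcn2 in TRα1+/m hearts is near the negative controls, and Myh6 and Atp2a2 are near the top of the scale. Myh7 lies nearer that top in TRα1+/m than in Wt hearts. The intervals of Hcn2, Myh6 and Atp2a2 therefore do not bound expression.

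Of 65 potassium channel genes tested, 2 were positive and 1 negative at an unadjusted p under 0.05 (4.62%, against 4.19% of all features). Beside Kcnk5, these were Kcnj2, the inward rectifier that sets the resting potential of ventricular cells, at 0.86 (95% interval 0.21 to 1.51), and Kcnj14, another inward rectifier, at -0.63 (-1.14 to -0.11). Kcnj2 ran from 8.93 to 10.13 (median 9.98) in TRα1+/m T3, 8.70 to 9.60 (median 9.23) in TRα1+/m H2O, 8.58 to 9.72 (median 9.51) in Wt T3 and 9.23 to 10.01 (median 9.56) in Wt H2O hearts, with overlap in both genotypes. Without the 5 mice 5 were positive and 1 negative (9.23%, against 4.92% of all features). Of the 122 genes of the heart rate and potassium channel lists together, 7 (5.74%) had an unadjusted p under 0.05.

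Of 39 calcium handling genes, 2 were positive (5.13%, against 4.19% of all features in either direction), namely Ryr2 and Itpr2. Itpr2, the inositol trisphosphate receptor of the heart muscle cell, had an interaction of 0.62 (95% interval 0.14 to 1.10). Without the 5 mice that stood apart 1 of the 39 was positive (2.56%, against 4.92% of all features). Of 31 genes known to respond to thyroid hormone, 1 was positive (Ryr2) and 3 were negative (Acta1, Myh7 and Rcan1, an inhibitor of calcineurin, at -0.66), a share of 12.9%, against 4.19% of all features. Without the 5 mice 1 of the 31 was negative and 0 were positive (3.23%, against 4.92% of all features). Of 25 genes of thyroid hormone receptors, partners, transport and metabolism, 1 was positive (4.0%, against 4.19% of all features in either direction). This was Rxra, the retinoid X receptor that pairs with TRα1, at 0.68 (95% interval 0.13 to 1.23), with changes of 0.46 in TRα1+/m and -0.22 in Wt hearts.

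Other groups of genes had maternal T3 changes of the same sign in both genotypes. All 55 ribosomal protein genes tested had a positive maternal T3 change in both TRα1+/m and Wt hearts, with medians of 0.44 in TRα1+/m and 0.58 in Wt hearts. Their median interaction was -0.16 and 0 of 55 had an unadjusted p under 0.05. Among the 77 oxidative phosphorylation genes, 74 were positive in TRα1+/m and 74 in Wt hearts, with medians of 0.33 in TRα1+/m and 0.44 in Wt hearts, a median interaction of -0.14 and 0 below an unadjusted p of 0.05. The medians were smaller without the 5 mice that stood apart. They were 0.12 in TRα1+/m and 0.23 in Wt hearts for ribosomal proteins, and 0.09 in TRα1+/m and 0.15 in Wt hearts for oxidative phosphorylation. The ribosomal list mean was 12.29 to 13.79 in TRα1+/m T3, 12.18 to 13.17 in TRα1+/m H2O, 12.11 to 13.34 in Wt T3 and 11.92 to 12.19 in Wt H2O hearts.

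Interferon response genes had a median change of 0.43 in TRα1+/m and 0.26 in Wt hearts, with a median interaction of 0.22 over 33 genes. Of these, 2 were positive at an unadjusted p under 0.05 (6.06%, against 4.19% of all features in either direction), namely Oasl2, of the oligoadenylate synthetase family, at 0.87, and Ddx58, the RNA sensor RIG-I, at 0.73. Oasl2 was highest in TRα1+/m T3 mouse 16, at 9.54, and without that mouse its interaction was 0.63. Without the 5 mice 5 of the 33 were positive (15.2%, against 4.92% of all features). The immune cell markers had 1 positive and 2 negative of 17 (17.6%, against 4.19% of all features). Csf1r, the macrophage growth factor receptor, was at 0.80, and the T cell genes Cd3g and Cd3e were at -0.77 and -0.75, both with signal not above the negative controls.

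Of 38 genes of fatty acid oxidation 1 was positive (2.63%, against 4.19% of all features in either direction). This was the hormone-sensitive lipase gene Lipe, at 0.76, which was 1.33 in the high number range and -0.19 in the low one. Of 30 immediate early and heat shock genes 1 was negative (3.33%, against the same 4.19%), Btg2, an antiproliferative gene, at -0.54. No member of the lists of extracellular matrix (45 genes), DNA methylation machinery (21), circadian clock (19) or autophagy (35) had an unadjusted p under 0.05. Without the 5 mice 1 extracellular matrix gene was positive and 3 were negative (8.89%, against 4.92% of all features), and the other lists again had none. The extracellular matrix median interaction was -0.07 over all mice and -0.26 without the 5. For the DNA methylation machinery the median interaction was -0.01, and the lowest p belonged to the de novo methyltransferase gene Dnmt3b, with an interaction of 0.63 (95% interval -0.05 to 1.32) at a signal not above the negative controls.

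**Figure D5:**
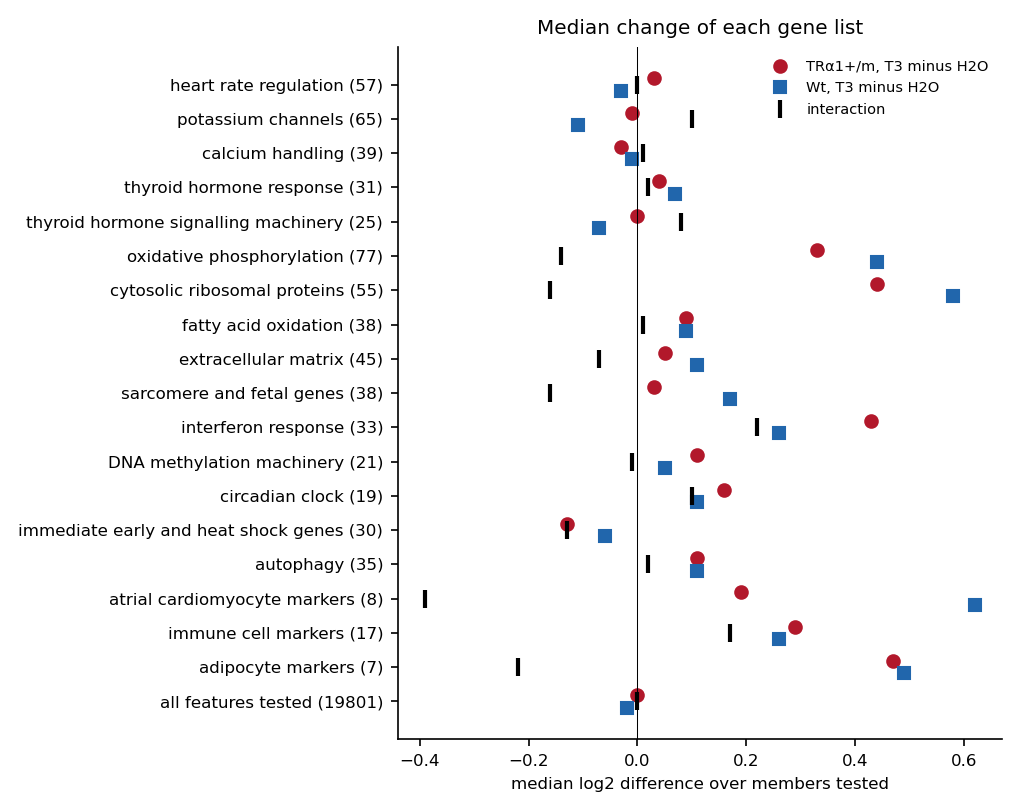
Median over the tested members of 18 of the 26 gene lists (number in brackets; the other marker lists are not plotted) of the maternal T3 change in TRα1+/m (red circles) and Wt hearts (blue squares) and of the interaction (black ticks), in log2 units. Ribosomal and oxidative phosphorylation genes have positive medians in both genotypes, 0.44 in TRα1+/m and 0.58 in Wt hearts for the ribosomal ones, and the atrial markers have a median interaction of -0.39, which was 0.94 in the high number range.

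Among other cell type markers, those of endothelium (11 tested), fibroblasts (7), smooth muscle and pericytes (8), red blood cells (2), neurons and Schwann cells (6), atrial cardiomyocytes (8) and adipocytes (7) had no member at an unadjusted p under 0.05. Epicardial and mesothelial markers had 1 positive of 8 (12.5%), mesothelin (Msln), at 0.70. Its Wt means (5.34 in T3 and 5.70 in H2O hearts) were at the level of the negative controls. Without the 5 mice that stood apart its interaction was 0.57. Lung and thymus markers had 1 negative of 6 (16.7%), Cd8b1, at -0.91, not above the negative controls. Cardiomyocyte markers had 1 positive of 8 (12.5%), Ryr2. The share over all features was 4.19% in either direction, and 1 member makes a large share of so short a list. The adipocyte markers were uneven, as the atrial ones were, with a list mean of 6.09 to 10.18 in TRα1+/m T3, 6.21 to 8.66 in TRα1+/m H2O, 6.25 to 8.50 in Wt T3 and 6.08 to 8.04 in Wt H2O hearts. Their median interaction was 1.28 in the high number range and -1.65 in the low one, so its sign depended on the mice taken.

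A stretch of zinc finger genes on chromosome 2 held 7 of the 8 genes with a symbol that fell after maternal T3 in TRα1+/m hearts, and it was picked out after its values had been seen. It runs from Zfp965 to Gm14326 (chr2:175470025-177957386, GRCm38.p6) and holds 15 named features of the table, coding for KRAB-type zinc finger proteins or predicted relatives of them. The genes are near-identical copies, whose array probes can catch each other's transcripts, so they count as 1 signal and not as 15. The within-group correlation between them had a median of 0.862. Of 14 members with a promoter in the RefSeq table (GRCm38.p6), 3 (Gm14308, Gm14434 and Gm2026) have the same 300 bases from 250 before to 50 after the start.

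A short part of 4 promoters of the stretch is given to show how alike the copies are. Each run reads 5′ to 3′ on the strand of the gene and ends before the start site used for its promoter of 300 bases. For Gm14434 the run lies within the annotated span of the gene (chr2:176470369-176486853). Capitals mark the 6 bases at the place where most copies read AGGTCA, the half-site letters that thyroid hormone receptors are known to bind. The positions are chr2:175469946-175470011 (Zfp965, plus strand), chr2:177464672-177464737 (Zfp970, plus strand), chr2:176486781-176486846 (Gm14434, minus strand) and chr2:177498141-177498206 (Gm14403, plus strand).
Zfp965: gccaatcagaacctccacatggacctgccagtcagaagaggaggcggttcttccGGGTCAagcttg
Zfp970: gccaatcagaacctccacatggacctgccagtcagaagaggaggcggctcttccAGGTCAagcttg
Gm14434: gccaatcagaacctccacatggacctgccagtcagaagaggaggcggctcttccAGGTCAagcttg
Gm14403: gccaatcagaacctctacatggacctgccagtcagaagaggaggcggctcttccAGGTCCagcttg
The letters AGGTCA stand at this place in 10 of 14 promoters of the stretch, and not in those of Zfp965, Zfp966, Gm14295 and Gm14403. The place was found with a pattern that already required the letters GGTC. The 14 runs hold only 6 distinct sequences, so they are not 14 independent matches. Anywhere on either strand, AGGTCA occurs in 10 of these 14 promoters and in 16.3% of all 32851 promoters of 300 bases in the table. A match is only a match of letters. The maternal T3 change in TRα1+/m hearts was -1.19 for Zfp965, without the letters, and -1.13 for Zfp970, with them. The array probes of the copies can catch each other's transcripts, so these values do not compare promoters with and without the letters. A role of the letters was not tested.

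Zfp965 ran from 13.54 to 14.46 (median 14.18) in TRα1+/m T3, 14.47 to 15.57 (median 15.46) in TRα1+/m H2O, 14.69 to 15.65 (median 15) in Wt T3 and 14.54 to 15.78 (median 15.37) in Wt H2O hearts. All 6 TRα1+/m T3 hearts were below all hearts of the other groups, TRα1+/m H2O mouse 4 being the nearest. It fell by 1.19 after maternal T3 in TRα1+/m hearts (adjusted p = 0.0345), the change in Wt hearts was -0.17, and the interaction was -1.02 (95% interval -1.65 to -0.38; unadjusted p = 0.0029, adjusted p = 1.0). Zfp970 fell by 1.13 in TRα1+/m hearts (adjusted p = 0.0345), with -0.24 in Wt hearts and an interaction of -0.89.

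Over the 15 features the interaction was -1.40 to -0.52 (median -1.0), with a median change of -1.10 in TRα1+/m and -0.08 in Wt hearts. In TRα1+/m hearts 7 of the 15 passed as lower at an adjusted p under 0.05 (0.0758% of all features), and at an unadjusted p under 0.05 the interaction was negative in 14 and positive in 0, against 2.19% and 2.0% of all features. The stretch was picked for its fall in TRα1+/m hearts, which is part of the interaction, and its members count as 1 signal. These counts are descriptions and no support for an interaction. The mean over the stretch was 12.61 to 13.56 (median 13.01) in TRα1+/m T3, 13.44 to 14.32 (median 14.23) in TRα1+/m H2O, 13.64 to 14.28 (median 13.87) in Wt T3 and 13.18 to 14.49 (median 14.19) in Wt H2O hearts. The TRα1+/m T3 hearts were lowest, and they overlapped with TRα1+/m H2O mouse 4 and Wt H2O mice 2 and 58. The median interaction was -1.25 without the 5 mice that stood apart, -1.04 in the high and -1.41 in the low number range.

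The 17 features called for maternal T3 in TRα1+/m hearts held 7 of this stretch, Rtn4r, Phxr4 and 8 with no symbol. Of those 8, the 7 lower ones varied with the mean of the stretch within groups (correlation 0.87 to 0.96), and the 17 held only 14 distinct sets of values. Phxr4, which had medians of 7.75 in TRα1+/m T3, 6.58 in TRα1+/m H2O, 6.96 in Wt T3 and 6.91 in Wt H2O hearts, rose by 1.09 in TRα1+/m hearts (adjusted p = 0.0345) and had an interaction of 0.95 (95% interval 0.34 to 1.56), which was 1.41 in the high number range and 0.13 in the low one. Its call was also lost without TRα1+/m T3 mouse 16.

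Atg2a, a lipid transfer protein of autophagosome formation, was the one gene called in Wt hearts, and its change in TRα1+/m hearts had the same sign. Its values were 7.02 to 8.05 (median 7.70) in TRα1+/m T3, 6.41 to 7.34 (median 6.92) in TRα1+/m H2O, 7.63 to 8.23 (median 7.90) in Wt T3 and 6.35 to 7.09 (median 6.57) in Wt H2O hearts. The Wt groups did not overlap. The change was 0.76 in TRα1+/m hearts (adjusted p = 0.152) and 1.27 in Wt hearts (adjusted p = 0.00895), and the interaction of -0.51 had a 95% interval of -1.06 to 0.05. The call in Wt hearts was lost without Wt H2O mouse 2 (limma adjusted p = 0.0517), the only Wt H2O mouse of the low number range, and the Wt call count was 0 in the high number range.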

How the data were processed

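RNA of 24 whole mouse hearts was hybridised to Clariom S arrays. The authors used the Transcriptome Analysis Console 4.0.1 with RMA (submitters' notes), and the deposited log2 values ran from 1.78 to 19.93. RMA sets all arrays to 1 distribution, so a shift shared by most genes cannot be seen, and high values compress. Of 28846 probe sets, 6640 controls were left out. Of the rest, 19572 had 1 gene symbol in the platform annotation, all matched by gene number to GRCm38.p6, 0 had several and 2634 none. For 55 symbols with several probe sets the one of highest mean was kept (67 dropped), and the 19801 features with a mean above 4 in at least 1 group were tested. No 2 arrays were identical.

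Group means were fitted with lmFit and eBayes (limma 3.58.1, R 4.3.3; prior degrees of freedom 6.8) on all 24 arrays, and p-values were adjusted by Benjamini-Hochberg over all features. Named genes were the 10 regular symbols of lowest interaction p in each direction, the cardiac genes that the paper names, the regular symbols called for maternal T3 in a genotype and the lowest p of each of 26 gene lists. Other list members and the Gm symbols were named after their values were seen. The members and lists were chosen with earlier results of these data known. The number of arrays limits the precision. Alternatives were the filter, eBayes settings, array weights, the number range as a block, the high range alone, centring, uncollapsed probe sets, the methods' analysis of variance (run over all features, not over gene lists), and leaving out each mouse. The fit was tested on simulated data with independent noise per feature, in 5 runs with 200 of 19801 features changed. At an adjusted p under 0.05 it recovered 0.1% of interactions of 0.58 log2 units and 31.8% of those of 1. It recovered 81.1% of those of 1.5 and 94.8% of those of 2. An interaction of 1 log2 unit would thus be missed for most features.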

Additional observations from a re-analysis of the deposited data

Results flagged for a closer look

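Over the 58 named genes in 4 groups of 6 mice, 232 groups in all, 15 held a mouse far from the others of its group. Chance flags about 1 in 20 groups. Of these values, 9 belong to the 5 that stood apart on the first component.

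TRα1+/m H2O mouse 4 was lowest of its group for Slc2a12 (5.53), Zfp965 (14.47), Kcnh2 (11.65) and Atp2a2 (19.91) and highest for the mitochondrial subunit gene Ndufb8 (13.13) and the ribosomal gene Rplp1 (15.53). In TRα1+/m T3 hearts, mouse 50 was lowest for Akap14 (3.86), mouse 17 lowest for Vmn1r228 (5.17), mouse 16 highest for Oasl2 (9.54) and mouse 51 lowest for Kcnd2 (8.11). In TRα1+/m H2O hearts, mouse 53 was highest for Oasl2 (8.0) and Hcn2 (6.13), and mouse 6 highest for Myh7 (19.33). Among Wt mice, T3 mouse 15 was highest for Pparg (8.97) and H2O mouse 57 highest for Dnmt3b (5.87).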

How the results depend on the processing

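The interaction gave 0 calls under every alternative but array weights (1) and leaving out each mouse (0 to 1). The lowest adjusted p was 0.106 without the 5 mice that stood apart, a setting chosen after seeing the data. For maternal T3 in TRα1+/m hearts the count of 17 became 32 with trend and robust eBayes, 39 with array weights, 30 with the number range as a block and 0 in the high number range, and 0 to 42 when 1 mouse was left out (0 without any 1 of 10 of the 12 TRα1+/m mice, 42 without TRα1+/m H2O mouse 4). For maternal T3 in Wt hearts the count of 1 became 2 with a filter at 5 and with trend and robust eBayes, 0 in the high number range and without the 5 mice, and 0 to 2 when 1 mouse was left out. The cause was not tested. The count of features with an interaction at an unadjusted p under 0.05 (830) became 613 (filter at 5) to 1020 (high number range), and for the width of the interaction interval the 15568 features within 1 became 12053 to 17640.

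Under the alternatives that used mice of both number ranges or the high range, 7 of 58 named genes reversed the sign of an interaction that never passed. In the low number range alone (9 mice, 1 of them Wt H2O) 5 did, namely Lipe (-0.19), Rplp1 (0.32), Kcnd2 (0.13), Hcn4 (-0.06) and Kcnh2 (0.08). In the high number range Kcne1 was -0.12, Pparg 0.13 and Stard10 0.15. With the number range as a block Hcn4 was -0.04, and without 1 mouse -0.02 to 0.22. Kcnh2 was -0.16 to 0.10 and Hcn2 -0.18 to 0.11 without 1 mouse. Without the 5 mice Kcnh2 was -0.34 and Hcn2 0.01. Atp2a2 was -0.01 after centring and 0.0 with the block, in the high number range, without the 5 mice and without any 1 mouse. No paired analysis was possible because each label number belongs to 1 mouse.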
